A study of Sus scrofa with 15 samples.

Results

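Translation initiation factor genes are described here in pig oocytes, chosen as every gene of the deposited gene table whose symbol starts with EIF and a digit, apart from the kinase genes *EIF2AK1* to *EIF2AK4*. There were 43 such genes among 22516. The transcripts of 42 of them could be placed and all 42 passed the filter on low counts, while *EIF1AY* was at 0 in every column used and was not tested. Another 9 symbols of the family, *EIF5*, *EIF2S3*, *EIF2S3B*, *EIF2B1*, *EIF3C*, *EIF3CL*, *EIF3K*, *EIF5A* and *EIF5AL1*, matched no gene identifier in the name table and were not analysed here.

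Initiation starts when eIF2 carries the initiator tRNA to the small ribosomal subunit, where eIF1, eIF1A, eIF3 and eIF5 help it to find the start codon. The eIF4F complex binds the cap of the mRNA and unwinds its leader, eIF2B reloads eIF2 with GTP after each round, and eIF5B joins the large subunit. A fully grown oocyte makes almost no new RNA during maturation, so that its proteins come from stored mRNAs, many of which are held back by proteins that bind eIF4E.

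The oocytes came from ovaries of slaughtered sows. GV (germinal vesicle) oocytes were not cultured, MII (metaphase II) oocytes had been matured in vitro for 44 h and had a polar body, and ‘damaged’ oocytes had spent the same time in culture without forming one. The cumulus cells had been removed from all of them, 15 oocytes were pooled per library, and each group had 5 libraries of cDNA made from polyA RNA. MII and ‘damaged’ libraries together are called MIX, and GV replicate 3, the library with the fewest counts, was left out, which leaves 4 GV libraries against 10 MIX libraries. Values per library are listed in the order of the replicate numbers. Per the paper, the oocytes came from 5 independent collections that each gave 15 oocytes of every group. The p-values measure the spread between libraries, with MII and ‘damaged’ libraries of the same collection counted separately in MIX. The sources used here do not say whether a replicate number marks a collection. In pooled oocytes, fewer oocytes with a transcript and less of it per oocyte cannot be told apart. Levels are relative to the other polyA RNA of a library, and neither poly(A) tail length nor RNA per oocyte was measured.

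The estimated counts of a library summed to 6.40 M in GV replicate 3 and 12 to 23.6 M in the other 14 libraries, where M stands for mega counts. In the gene table, 7 of 15 columns summed to the total of a differently labelled library. These were left aside, and gene counts were instead computed from the transcript file of each library. MII against ‘damaged’ therefore rests on the labels of the transcript files, and the counts are also given for the 8 libraries whose labels did not disagree. Levels are given in CPM, which are counts scaled by the library total and by the TMM factor described below. Of the oocyte markers, all 9 with a gene identifier had counts. Their summed level was 9810 to 11500 CPM in GV, 4700 to 7180 CPM in MII and 5400 to 7120 CPM in ‘damaged’ libraries. The markers of cumulus and granulosa cells summed to 5.37 to 13.5, 10.8 to 15.7 and 5.66 to 10.8 CPM in these groups, with 9 of 10 detected and *PTX3* at 0. Those of theca, blood and endothelium summed to 11 to 14.2, 11.8 to 27.8 and 11.4 to 24.5 CPM, with 5 of 6 detected and *CYP17A1* at 0.

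The mRNAs of initiation factors moved in both directions between GV and MIX oocytes. With TMM factors, those of *EIF1*, *EIF2A* and *EIF5A2* rose 4.56 to 5.96 times. Those of *EIF3F*, *EIF6*, *EIF4EBP3*, *EIF2B2*, *EIF2B5*, *EIF3B* and *EIF3G* fell 6.69 to 103 times in the fit. On library sizes, described next, the rises of *EIF1*, *EIF2A* and *EIF5A2* were smaller, with log2 fold changes of 1.68, 1.29 and 1.66. Each measured subunit of eIF2B fell, while the subunits of eIF3 moved both ways. *EIF4E*, the main cap-binding protein, its oocyte paralog *EIF4E1B* and their partner *EIF4ENIF1* passed the test in neither direction. On library sizes, however, all 3 were called lower, and *EIF4E* was also called lower with the replicate number as a block.

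Counts were scaled with TMM factors, which adjust each library's size for its RNA composition, and tested with limma-voom over 13229 genes. Of the 42 genes, 11 rose and 20 fell at an FDR under 0.01, where 30.3% of all genes tested rose and 37.2% fell. DEGs, which also had an absolute log2 fold change over 2, numbered 3 upward against 4.27% of all genes and 7 downward against 16.7%. The share of DEGs was therefore near the background in both directions. All 10 MIX libraries were above all 4 GV libraries in 10 of the 42 genes and below them in 17, against 24.3% and 29.4% of all genes. The median log2 fold change was -0.46 for the family and -0.16 for all genes. On library sizes without TMM factors these medians were -1.35 and -1.06, so that 5 genes of the family rose and 30 fell, where 12.1% of all genes rose and 60.5% fell. The share of rises among called genes was 14.3% in place of 35.5% in the family and 16.6% in place of 44.9% among all genes. Of the 11 genes not called with TMM factors, 10 were called lower on library sizes, all but *EIF2S1*. With only the 8 libraries whose labels did not disagree, 10 rose and 16 fell, where 24.3% and 31.1% of all genes did.

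**Figure D1:**
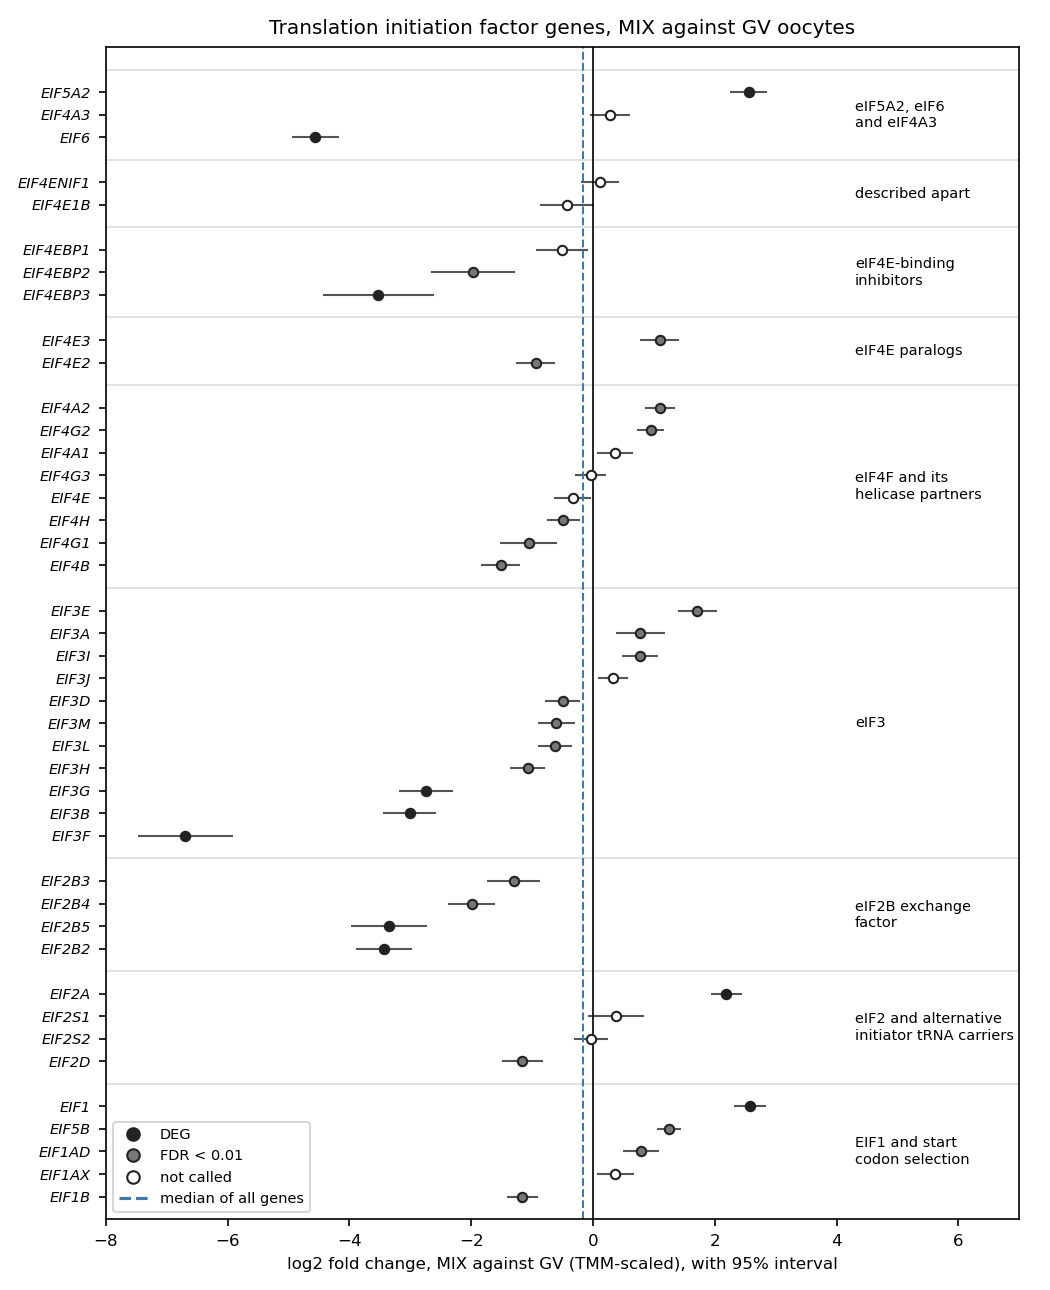
Log2 fold change of MIX against GV oocytes (x axis, TMM-scaled) for the 42 genes, grouped by complex, with 95% intervals as bars. Black points are DEGs, grey points passed an FDR of 0.01 and white points did not, and the dashed line is the median of all genes at -0.16. All 4 eIF2B genes lie to its left, and *EIF3F* lies farthest left at -6.69.

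In the group of *EIF1* and start codon selection, which here also holds *EIF5B* and *EIF1AD*, 3 of 5 genes rose and 1 fell. Of all genes tested, 30.3% rose and 37.2% fell. *EIF1*, which keeps the scanning ribosome from starting at the wrong codon (ENSSSCG00000017430, chromosome 12, 20974498 to 20977075 of Sscrofa11.1, as are all positions), had 512, 441, 448 and 407 CPM in the GV libraries, 2414, 3400.0, 2512, 3060.5 and 2594 CPM in the MII libraries and 2193, 3052, 2173, 3318 and 2454 CPM in the ‘damaged’ libraries. The lowest MIX library was thus far above the highest GV library, and the log2 fold change of 2.58 ± 0.13 (SE, limma FDR 3.75e-13) was the highest of the family, beside 2.56 for *EIF5A2*. It was 1.68 on library sizes, below the size set for a DEG. *EIF1B*, a near copy of *EIF1*, fell by 1.16 on the log2 scale, from 231 ± 22.3 CPM (SD, n = 4) to 104 ± 16.7 CPM (SD, n = 10). Whether reads were shared between these similar genes was not examined.

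In TPM, a unit per transcript length that allows levels of different genes to be compared, *EIF1* went from the 153rd to the 37th gene of the oocyte. It took 13.9% ± 0.88 of the summed TPM of the family in GV and 44.5% ± 4.05 in MIX oocytes, while that sum was 6792 ± 135 TPM in GV and 6269 ± 442 TPM in MIX. Of the TPM of *EIF1* and *EIF1B* together, *EIF1* took 58.2% ± 1.24 in GV, 94.6% ± 1.46 in MII and 94.9% ± 1.02 in ‘damaged’ oocytes.

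*EIF5B*, the GTPase that joins the ribosomal subunits, had 1415, 1315, 1327 and 1329 CPM in GV, 3769, 3435, 2784, 3157 and 3406 CPM in MII and 3164, 3242, 2685, 3411 and 3060.3 CPM in ‘damaged’ libraries. All MIX libraries were above all GV libraries, with a log2 fold change of 1.25 ± 0.097 (SE, limma FDR 2.84e-10) that was 0.35 on library sizes. *EIF1AD*, named for its eIF1A-like domain, rose by 0.79 with TMM factors and had -0.11 on library sizes. *EIF1AX*, which codes for eIF1A, was not called at 0.36 (limma FDR 0.0299).

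With TMM factors the eIF2 complex itself showed no called change in the 2 subunits measured. *EIF2S1* (alpha) had a log2 fold change of 0.38 ± 0.22 (SE, limma FDR 0.121) and *EIF2S2* (beta) one of -0.04 ± 0.13 (SE, limma FDR 0.815). On library sizes *EIF2S1* had -0.52 and was not called, and *EIF2S2* had -0.93 and was called lower, against a median of all genes of -1.06. *EIF2A*, which is not a subunit of eIF2 and can bring initiator tRNA to some mRNAs (ENSSSCG00000011710, chromosome 13, 90761453 to 90804274), had 83.8, 62.5, 62.7 and 49.3 CPM in GV, 294, 312, 261, 309 and 288 CPM in MII and 315, 296, 282, 292 and 246 CPM in ‘damaged’ libraries. The groups did not overlap, and the log2 fold change was 2.19 ± 0.12 (SE, limma FDR 1.51e-12), or 1.29 on library sizes. *EIF2D*, another factor that binds initiator tRNA without GTP, fell by 1.16 on the log2 scale.

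The exchange factor eIF2B had 4 of 4 measured genes called lower and a median log2 fold change of -2.67, where 37.2% of all genes fell and their median was -0.16. On library sizes the median was -3.56, where 60.5% of all genes fell and their median was -1.06. The distance from the median of all genes was -2.51 in both. *EIF2B5*, the catalytic epsilon subunit (ENSSSCG00000011783, chromosome 13, 122060408 to 122070327), had 3.24, 3.77, 3.89 and 4.75 CPM in GV, 0.944, 0.151, 0.154, 0.570 and 0.248 CPM in MII and 0.303, 0.223, 0.303, 0.447 and 0.786 CPM in ‘damaged’ libraries. Every MIX library was below every GV library, at a log2 fold change of -3.35 ± 0.30 (SE, limma FDR 2.05e-09), which rests on 1.98 to 11.7 counts per MIX library. *EIF2B2*, the beta subunit (ENSSSCG00000002377, chromosome 7, 98203820 to 98246199), had 18.4, 12.9, 16.0 and 9.66 CPM in GV, 1.05, 1.74, 2.25, 1.37 and 0.998 CPM in MII and 0.935, 1.33, 0.892, 1.48 and 1.00 CPM in ‘damaged’ libraries. Here too the groups were apart, with a log2 fold change of -3.43 ± 0.22 (SE, limma FDR 1.37e-11). *EIF2B4* (delta) fell by 1.99, just under the size of a DEG, and *EIF2B3* (gamma) fell by 1.30 on the log2 scale. The summed TPM of the 4 genes was 91.0 ± 4.38 in GV, 12.7 ± 1.73 in MII and 12.9 ± 5.23 in ‘damaged’ oocytes.

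eIF3 is the scaffold that holds the small subunit, the mRNA and the other factors together, and 11 of its subunit genes were measured. Of these, 3 rose, 7 fell and *EIF3J*, the loosely bound subunit, was not called, where 30.3% of all genes rose and 37.2% fell. *EIF3F* (ENSSSCG00000039647, chromosome 9, 1291660 to 1297987), a subunit with an MPN domain, had 13.8, 22.5, 17.6 and 21.6 CPM in GV, 0.468, 0.150, 0, 0.0524 and 0.123 CPM in MII and 0.226, 0.526, 0.120, 0.127 and 0.265 CPM in ‘damaged’ libraries. The GV libraries held 269 to 521 counts of the gene and the MIX libraries 0 to 6.93, with 1 MIX library at 0. At -6.69 ± 0.38 (SE, limma FDR 2.04e-12), this was the lowest log2 fold change of the family, and the gene moved from rank 2853 to rank 11581 by TPM.

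*EIF3B*, a core subunit (ENSSSCG00000039390, chromosome 3, 1645462 to 1666096), had 20.7, 29.6, 28.9 and 39.5 CPM in GV, 4.96, 5.4, 4.95, 3.25 and 3.07 CPM in MII and 4.66, 2.63, 1.92, 3.0 and 4.17 CPM in ‘damaged’ libraries. *EIF3G*, a subunit that binds RNA (ENSSSCG00000013661, chromosome 2, 68966221 to 68970648), had 34.3, 28.7, 29.1 and 25.2 CPM in GV, 4.03, 3.98, 4.35, 4.82 and 5.29 CPM in MII and 2.71, 5.19, 1.86, 6.40 and 7.42 CPM in ‘damaged’ libraries. In both genes every MIX library was below every GV library. The log2 fold changes were -3.01 ± 0.21 for *EIF3B* (SE, limma FDR 4.99e-11) and -2.74 ± 0.22 for *EIF3G* (SE, limma FDR 3.16e-10). The locus of *EIF3B*, as those of *EIF2B4* and *EIF4B*, has the RefSeq biotype lncRNA although the symbol names a protein.

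*EIF3E* moved the other way. This subunit had 428, 271, 269.7 and 198 CPM in GV, 942, 945, 774, 1108 and 865 CPM in MII and 1094, 1059, 927, 820.2 and 737 CPM in ‘damaged’ libraries, so that the groups did not overlap. Its log2 fold change was 1.71 ± 0.15 (SE, limma FDR 2.59e-09) and 0.82 on library sizes. *EIF3A*, the largest core subunit, and *EIF3I* rose by 0.78 and 0.77 with TMM factors, but had -0.11 and -0.13 on library sizes. *EIF3H* fell by 1.07, and smaller falls of 0.62 for *EIF3L*, 0.60 for *EIF3M* and 0.50 for *EIF3D* were no longer called with all 5 GV libraries or with only the 8 libraries named above.

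The makeup of the eIF3 mRNAs differed accordingly. *EIF3M* had the largest share of their summed TPM in GV with 34.7% ± 3.45 and 18.3% ± 1.42 in MIX, whereas *EIF3E* had 20.8% ± 1.77 in GV and 54.5% ± 3.28 in MIX. The share of *EIF3H* was 12.3% ± 0.76 in GV and 4.77% ± 1.05 in MIX, and that of *EIF3F* was 2.23% ± 0.87 and 0.018% ± 0.015. None of these 4 shares overlapped between GV and MIX libraries.

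**Figure D2:**
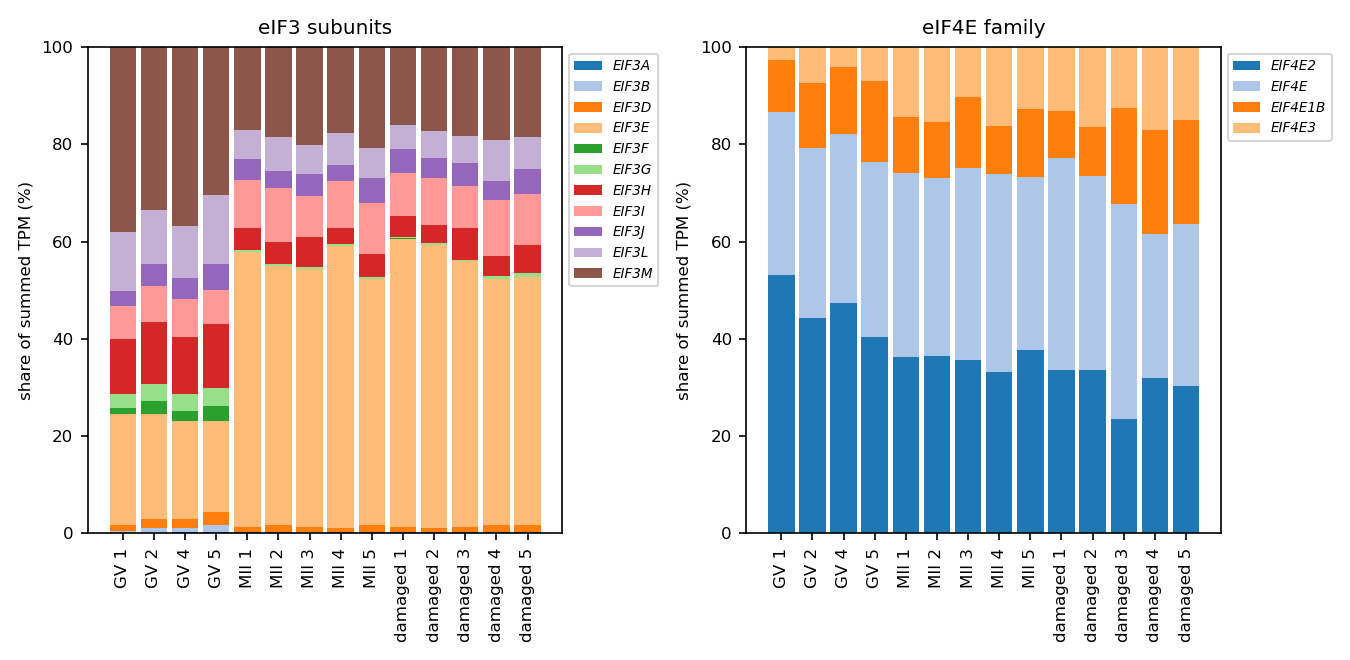
Share of the summed TPM (y axis, percent) taken by each eIF3 subunit (left) and each eIF4E family gene (right) in each of the 14 libraries (x axis). *EIF3M* has the largest eIF3 share in GV (34.7%) and *EIF3E* in MIX (54.5%), and *EIF4E3* has 5.25% of the eIF4E family in GV and 14.4% in MIX.

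Of the 8 genes of eIF4F and its helicase partners, 2 rose, 3 fell and 3 were not called, near the 30.3% of all genes that rose and 37.2% that fell. The rises were those of *EIF4A2*, one of the helicases, by 1.10 and of *EIF4G2*, a scaffold that lacks the site for eIF4E, by 0.95, but on library sizes they were 0.21 and 0.051 and not called. *EIF4G1*, the classical scaffold, fell by 1.06, *EIF4B*, which stimulates the helicase, by 1.52, and *EIF4H*, which does the same, by 0.49. The last of these was not called without GV replicate 2 or without GV replicate 5, with log2 fold changes of -0.43 and -0.40. *EIF4A1* and *EIF4G3* were not called, at 0.36 ± 0.14 (SE, limma FDR 0.0235) and -0.04 ± 0.12 (SE, limma FDR 0.787). *EIF4G2* took 94.3% ± 1.30 of the TPM of the 3 *EIF4G* genes in GV and 97.3% ± 0.42 in MIX oocytes. *EIF4A2* took 76.5% ± 2.47 and 84.5% ± 1.84 of that of *EIF4A1* and *EIF4A2*, whose sharing of reads was not examined.

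*EIF4E* had 152, 105, 120.4 and 105 CPM in GV, 87.1, 90.3, 107, 98.3 and 92.1 CPM in MII and 110.4, 98.0, 131, 69.1 and 75.8 CPM in ‘damaged’ libraries. The groups overlapped and the log2 fold change of -0.33 ± 0.15 was not called (SE, limma FDR 0.0438). With the replicate number as a block it was -0.42 ± 0.13 and called (SE, limma FDR 0.00592). Of its paralogs, *EIF4E2* binds the cap without recruiting the ribosome and had 129, 70.8, 87.0 and 62.4 CPM in GV, 44.3, 47.8, 51.5, 42.6 and 52.1 CPM in MII and 45.1, 43.7, 37.0, 39.5 and 36.7 CPM in ‘damaged’ libraries. It fell by 0.94 on the log2 scale without overlap (SE 0.15, limma FDR 1.23e-05). GV replicate 3, which was left out, did not share this. With all 15 libraries scaled together *EIF4E2* was at 32.1 CPM in it, below the 38.0 to 53.9 CPM of MIX. *EIF4E3*, a cap-binding paralog of divergent sequence, had 13.0, 23.4, 14.9 and 21.4 CPM in GV, 35.3, 40.7, 29.5, 41.9 and 35.2 CPM in MII and 35.6, 42.9, 39.7, 42.4 and 36.5 CPM in ‘damaged’ libraries. All MIX libraries were above all GV libraries with a log2 fold change of 1.10 ± 0.15 (SE, limma FDR 1.35e-06), although on library sizes it was 0.21 and not called.

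Within the summed TPM of the 4 cap-binding genes, *EIF4E2* had the largest share in GV with 46.3% ± 5.41, and 33.2% ± 4.10 in MIX. *EIF4E* had 34.8% ± 1.06 in GV and 38.1% ± 4.5 in MIX, with overlapping libraries. *EIF4E3* had 5.25% ± 2.24 and 14.4% ± 2.15 without overlap. In GV replicate 3, which was left out, *EIF4E3* had 18.3%, above the highest MIX library at 17.1%. *EIF4E2* had 24.6% in it, within the MIX range of 23.5 to 37.8%.

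The inhibitors that bind eIF4E in place of the scaffold differed in level and change. *EIF4EBP1* took 95.6% ± 2.30 of the TPM of the 3 genes in GV and was not called, with a log2 fold change of -0.50 ± 0.21 (SE, limma FDR 0.0325). *EIF4EBP2* fell by 1.97, just under the size of a DEG. *EIF4EBP3* (ENSSSCG00000059551, chromosome 2, 142303881 to 142305719) had 0.510, 0.936, 0.672 and 1.05 CPM in GV, 0.0937, 0, 0, 0.0524 and 0.0615 CPM in MII and 0, 0, 0, 0.127 and 0.199 CPM in ‘damaged’ libraries. Its fall by 3.53 ± 0.44 (SE, limma FDR 2.85e-07) rests on 9.98 to 25.3 counts per GV library and 0 to 2.95 per MIX library, 5 of which were at 0.

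*EIF4E1B* and *EIF4ENIF1* are set apart because both belong to the storage of oocyte mRNAs, the first as an eIF4E paralog of germ cells and the second as a protein that binds eIF4E in repressed mRNA particles. *EIF4E1B* (ENSSSCG00000014052, chromosome 2, 81277086 to 81281668) had 15.7, 12.9, 15.2 and 15.6 CPM in GV, 8.52, 9.01, 12.8, 7.66 and 11.6 CPM in MII and 7.83, 7.97, 18.7, 15.9 and 15.4 CPM in ‘damaged’ libraries. All MII libraries were below all GV libraries, and the ‘damaged’ libraries lay on both sides of them. The log2 fold change was -0.43 ± 0.21 for MIX (SE, limma FDR 0.0713), -0.61 ± 0.24 for MII (SE, limma FDR 0.0299) and -0.25 ± 0.24 for ‘damaged’ oocytes (SE, limma FDR 0.357), none of which was called. On library sizes the value for MIX was -1.33 and called, against a median of all genes of -1.06.

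*EIF4ENIF1* (ENSSSCG00000010030, chromosome 14, 48156835 to 48204701) had 144, 219, 189 and 233 CPM in GV, 304, 274, 189, 203 and 186 CPM in MII and 217, 192, 163, 198 and 206 CPM in ‘damaged’ libraries. The 3 groups overlapped, and the log2 fold change of 0.12 ± 0.15 had a 95% interval of -0.20 to 0.43 (SE, limma FDR 0.489). On library sizes it was -0.78 and called. In TPM, *EIF4ENIF1* was at 154 ± 52.1 and *EIF4E1B* at 46.0 ± 7.93 in GV, beside 117 ± 6.57 for *EIF4E*.

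The last group holds factors that act on the ribosome outside the steps above. *EIF5A2*, which is related to eIF5A, a factor of elongation (ENSSSCG00000040946, chromosome 13, 109510815 to 109530450), had 16.5, 14.8, 12.6 and 13.6 CPM in GV, 89.3, 77.2, 81.2, 99.2 and 98.1 CPM in MII and 77.3, 96.9, 75.4, 62.2 and 92.1 CPM in ‘damaged’ libraries. *EIF6*, which binds the large subunit and keeps it from joining the small one (ENSSSCG00000022864, chromosome 17, 38638295 to 38643918), had 205, 123, 157 and 114 CPM in GV, 4.14, 6.32, 8.43, 4.52 and 9.0 CPM in MII and 5.96, 4.33, 6.51, 7.98 and 5.97 CPM in ‘damaged’ libraries. Neither gene overlapped between GV and MIX. *EIF5A2* rose by 2.56 ± 0.14 on the log2 scale (SE, limma FDR 2.13e-12), or 1.66 on library sizes, and *EIF6* fell by 4.56 ± 0.19 (SE, limma FDR 2.9e-14) and from rank 448 to rank 5073 by TPM. *EIF4A3*, the helicase of the exon junction complex, was not called at 0.28 ± 0.16 (SE, limma FDR 0.116).

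**Figure D3:**
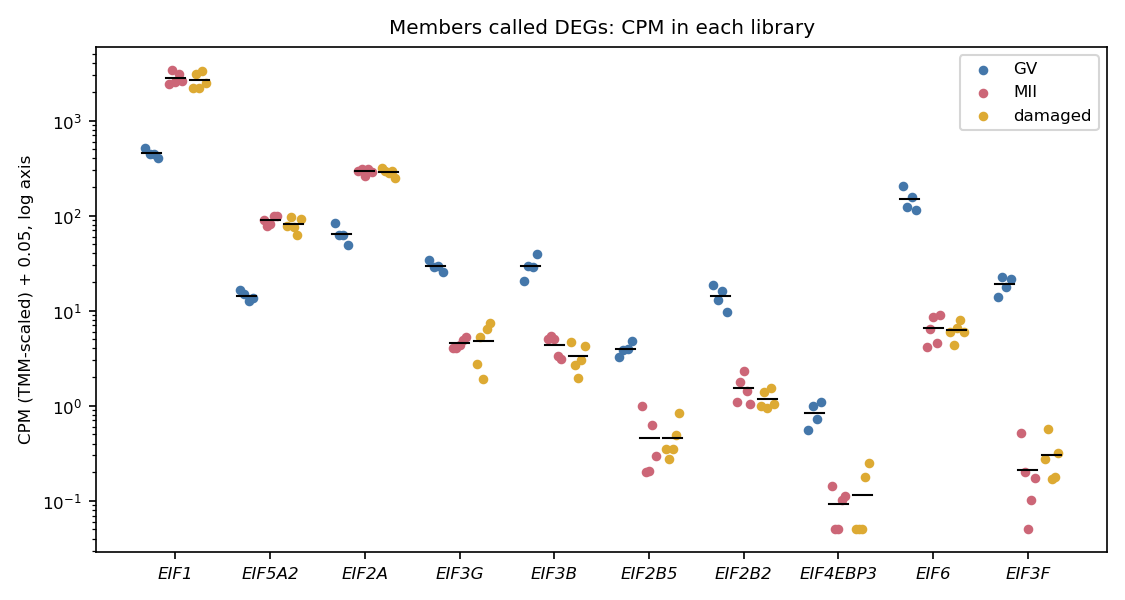
CPM (TMM-scaled) plus 0.05 on a log axis of the 10 genes called DEGs (x axis) in each library, with GV, MII and damaged libraries as points of different colours and group means as black lines. *EIF1*, *EIF5A2* and *EIF2A* sit higher in all MIX libraries, the other 7 sit lower, and the MII and damaged points overlap in each gene.

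Compared with GV separately, MII oocytes had 10 rises and 19 falls, where 28.2% and 34.2% of all genes rose and fell, and ‘damaged’ oocytes 11 rises and 19 falls, where 28.0% and 33.4% did. Both comparisons use the same GV libraries, so their values are only set side by side. For *EIF1* the log2 fold changes were 2.62 ± 0.15 in MII and 2.53 ± 0.15 in ‘damaged’ oocytes, and for *EIF6* -4.55 ± 0.24 and -4.58 ± 0.23. For *EIF3F* they were -7.16 ± 0.53 and -6.22 ± 0.45, and for *EIF3B* -2.80 ± 0.25 and -3.22 ± 0.26.

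Whether oocytes that failed to extrude a polar body differ in these mRNAs was tested directly between the 5 MII and the 5 ‘damaged’ libraries. None of the 42 genes was called by limma, edgeR or DESeq2, where 0.0% of all genes were called by limma, and at an unadjusted p under 0.05 limma counted 0 of the 42, where 1.47% of all genes had one. The MII and ‘damaged’ ranges of gene CPM overlapped in all 42 genes. On the same 14 libraries, edgeR and DESeq2 also gave 0 of the 42 at that p. The limma count was 1 with only the 8 libraries named above, where 1.7% of all genes had such a p, and 1 without ‘damaged’ replicate 1 or without ‘damaged’ replicate 2. The median size of the log2 difference was 0.115 in the family and 0.123 in all genes. The lowest unadjusted limma p was 0.146 for *EIF4E1B*, at -0.36 with a 95% interval of -0.86 to 0.14. The difference of largest size was that of *EIF3F*, at -0.94 with an interval of -2.34 to 0.45 and few counts in both groups. The 95% interval lay within 1 on the log2 scale in both directions for 36 of the 42 genes and within 0.5 for 23, which is the precision these libraries gave.

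**Figure D4:**
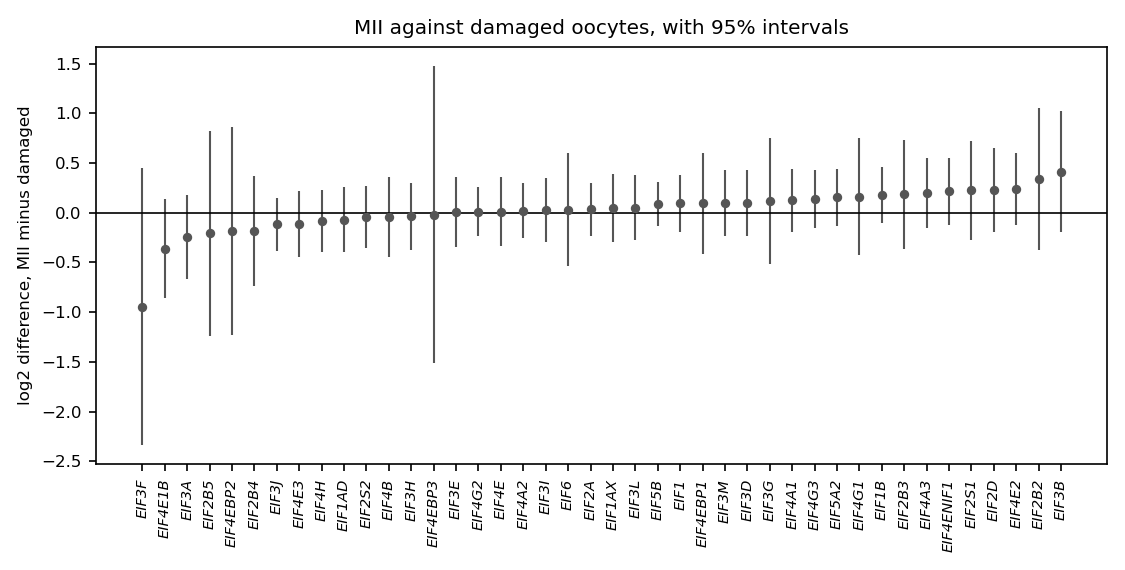
Log2 difference of MII minus damaged oocytes (y axis) for the 42 genes, sorted by value (x axis), with 95% intervals as bars. Every interval includes 0, and the widest are those of *EIF3F* and *EIF4EBP3*, which had the fewest counts.

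Isoform usage was compared between MIX and GV as the share of each transcript in the TPM of its gene, with a test built on the DEXSeq model and run in DESeq2. It was not tested between MII and ‘damaged’ oocytes, for which the paper reports differences in isoform usage of *RAB4B* and *DTNBP1*. Of the 42 genes, 29 had more than 1 transcript, and 19 of these with 62 isoforms passed the filters, which require a difference over 10 percentage points in the gene. Of the 62 isoforms, 33 were called in 14 genes, where 43.1% of all isoforms and 63.3% of all genes tested were called. Of the 33, 25 in 13 genes were called in every alternative. The genes below were chosen after their values were seen.

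The cap-binding gene *EIF4E3* changed its main isoform. The transcript of 2821 bases took 99.997, 99.3, 91.4 and 84.6% in the GV libraries and 23.3 to 51.5% in the MIX libraries, and that of 2549 bases was at 6.17% ± 7.29 in GV and 67.5% ± 8.11 in MIX (DEXSeq model, adjusted p 1.74e-11). *EIF4ENIF1*, whose gene level was not called, had 82.1% ± 4.65 in its 3143-base isoform in GV and 62.9% ± 6.46 in MIX, while the 3432-base isoform had 17.1% ± 4.35 and 35.5% ± 5.93 (DEXSeq model, adjusted p 1.03e-07). *EIF4A3*, also not called as a gene, had 59.3% ± 12.3 of its TPM in the 1552-base isoform in GV and 88.6% ± 3.0 in MIX (DEXSeq model, adjusted p 2.3e-11).

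*EIF2A*, which rose as a gene, also changed in makeup. Its 2630-base isoform took 81.9% ± 6.52 in GV and 31.9% ± 7.06 in MIX. Its 1884-base isoform was listed at 0 in all 4 GV libraries and took 18.0 to 41.3% in the MIX libraries, and its 1981-base isoform had 2.42% ± 4.74 and 35.0% ± 3.89. *EIF4G2* had 44.9% ± 8.76 of its TPM in the 3865-base isoform in GV and 13.8% ± 2.91 in MIX, and 38.0% ± 11.2 and 65.8% ± 6.45 in the 3786-base isoform. *EIF4E2* had 76.1% ± 5.93 in GV and 88.1% ± 2.58 in MIX in its 813-base isoform, with overlapping libraries. Its 3570-base isoform had 16.8% ± 3.72 and 4.17% ± 1.24, without overlap.

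The GV libraries differed widely among themselves in several genes. In GV the 2455-base isoform of *EIF2B5* took 0.022 to 100% and the 5812-base isoform of *EIF4G3* 29.8 to 91.5%, and neither was called. The 1441-base isoform of *EIF3E* took 57.3, 10.3, 31.5 and 1.82% in the GV libraries and 49.9 to 70.9% in MIX, so that the groups overlapped, and the 1802-base isoform of *EIF4A1* took 68.0, 24.2, 49.3 and 29.4% in GV and 67.0 to 98.1% in MIX. Neither of these isoforms was called in every alternative.

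**Figure D5:**
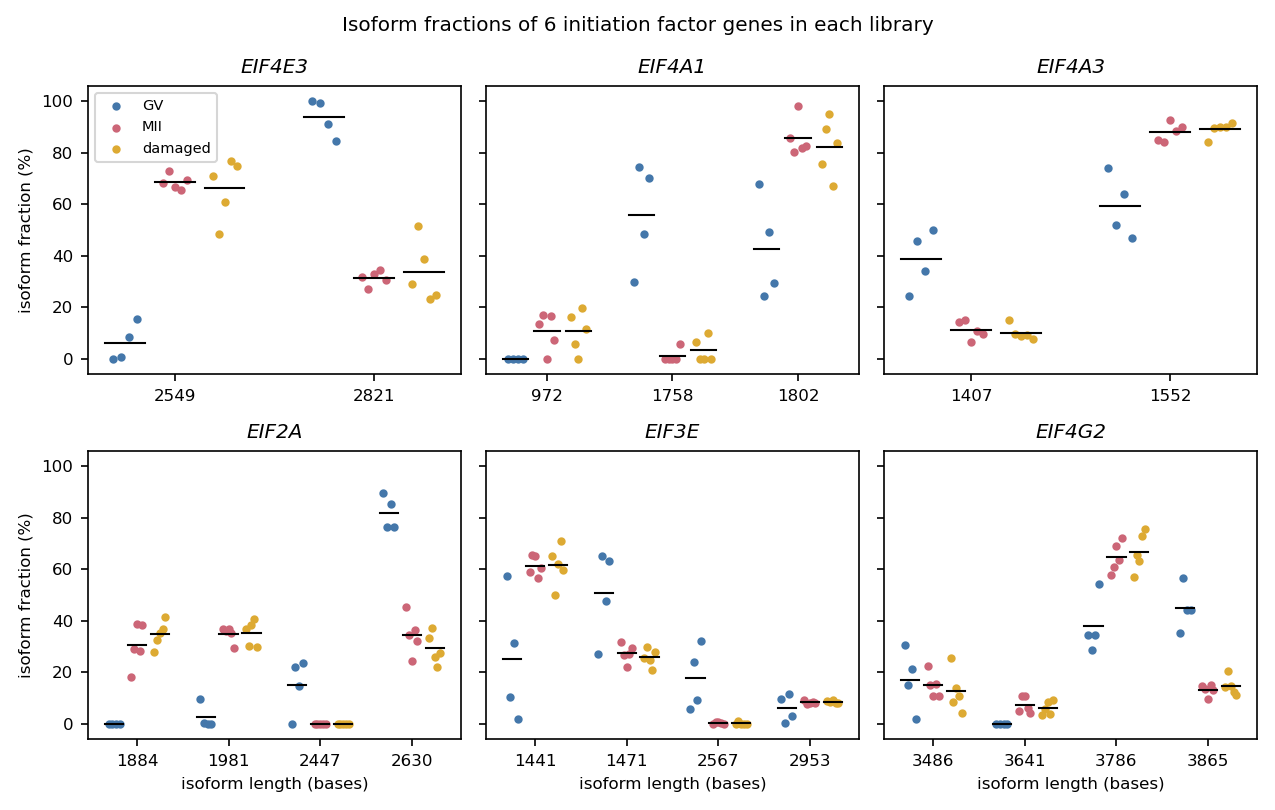
Isoform fraction (y axis, percent of the TPM of the gene) of each tested isoform, named by its length in bases (x axis), in each GV, MII and damaged library of 6 genes, with group means as black lines. The main isoform of *EIF4E3* is the 2821-base one in GV (93.8%) and the 2549-base one in MIX (67.5%), and the points of *EIF3E* and *EIF4A1* are spread widely among the GV libraries.

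The initiation factors act within a wider machinery, given here from lists chosen with earlier results of these data known. The counts of each list stand beside 30.3% of all genes higher and 37.2% lower with TMM factors, and 12.1% and 60.5% on library sizes. Of the factors for elongation, termination and recycling, 8 of 13 were tested, of which 1 rose and 5 fell, or 1 and 6 on library sizes. The falls included *EEF1D*, an exchange subunit of elongation factor 1, from 26.4 ± 6.86 to 1.87 ± 0.41 CPM with a log2 fold change of -3.78, and *ETF1*, the release factor, with -2.12. The rise was that of *ABCE1*, which splits ribosomes for reuse, with 1.68. Of the kinases and phosphatase subunits that set the rate of initiation, 18 of 19 were tested, 5 rose and 7 fell, or 1 and 11 on library sizes, near the shares of all genes. *AKT1S1* and *TSC2*, both of which restrain mTORC1, fell by 5.11 and 3.39 on the log2 scale, *AKT1S1* from 3.66 to 0.10 CPM. The mTORC1 genes *MLST8*, *RPTOR* and *MTOR* fell as well, by 3.06, 1.40 and 1.32, while *RHEB* of the same list rose by 1.06 with TMM factors. *EIF2AK1*, another kinase of the list, fell by 2.53. *EIF2AK4*, the kinase that phosphorylates eIF2 under amino acid shortage, rose by 1.90, or 1.01 on library sizes. *RPS6KB1*, a kinase downstream of mTORC1, rose by 1.19 but had 0.28 on library sizes.

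Of the mRNA-binding partners of the cap complex, 20 of 21 were tested, 7 rose and 6 fell, or 2 and 12 on library sizes, where 12.1% of all genes rose and 60.5% fell. *YBX2*, which coats stored mRNAs in germ cells, fell by 5.31 on the log2 scale, with a mean of 79.4 ± 32.7 CPM in GV against 1.97 ± 0.72 CPM in MIX. *ZAR1*, another protein of stored oocyte mRNAs, went from 159.8 ± 29.1 to 7.26 ± 1.95 CPM with -4.48. The helicase *DDX3X* rose by 3.03 and *LARP4*, which binds poly(A), by 2.01, and both were also higher on library sizes, by 2.13 and 1.11.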

How the data were processed

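The deposited files of 15 pig libraries were used, with groups taken from the labels. Per the labels and the paper, cDNA was amplified with SMART-Seq HT in 13 cycles and the library in 8, and single-end reads of 75 bases were trimmed with AfterQC. The estimated counts and TPM per transcript were made by the authors with Kallisto (0.43 in the submitters' processing notes) on Sscrofa11.1, without normalization of the counts across libraries. For the gene table, the authors turned these into estimated counts of genes through tximport (lengthScaledTPM).

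In that table, 8 of 15 columns summed to the total of the transcript file that bears their name. The other 7, whose totals belong to libraries with other labels, were left out. Transcripts were assigned to genes by matching TPM sums to these 8 columns, which placed 35852 of 46369 transcripts and 99.987 to 99.999% of the counts of each library, and gene counts were computed from them with the same formula. They differed from deposited counts of 10 or more by at most 0.000101%.

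Genes kept by filterByExpr of edgeR 4.0.16 (minimum count 10, minimum total count 15) entered limma-voom (limma 3.58.1, R 4.3.3) with Benjamini-Hochberg adjustment over all of them. MIX against GV was fitted with 2 groups and the other comparisons with 3. TMM factors were used although the text of the paper names no such step, and library sizes are the alternative. Isoforms were kept at a gene TPM over 1, an isoform fraction over 5% and a difference over 10 percentage points, tested with the DEXSeq model in DESeq2 1.42.0 and called at an FDR under 0.01 with a difference over 10 points. Summaries and figures used Python 3.11.15. The limma-voom test and the isoform test with the DEXSeq model were checked on simulated data, and the alternative tests were not. The paper left out a GV library of low depth without giving its replicate number. GV replicate 3, with the fewest counts, was taken to be that library and left out.

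In all 30 pairs of libraries of a group, the spread exceeded counting error (chi-square of 15.2 to 209 per gene), so no library was a copy of another. CPM are TMM-scaled, and levels are means ± SD (n = 4 for GV, 5 for MII and for ‘damaged’, 10 for MIX). The members and lists were chosen with earlier results of these data known. By rule, values per library are given for DEGs, for the 3 genes highest by mean TPM, for the eIF4E family, *EIF4E1B* and *EIF4ENIF1*, and of each other list the 2 largest called changes in each direction are named. In the list of kinases, further called genes are named beside these. The human libraries were not analysed here.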

Additional observations from a re-analysis of the deposited data

Results flagged for a closer look

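Of 126 groups of libraries, 1 per gene and condition, 7 had 1 library far from the others by Dixon's criterion, where 6.3 would be flagged if chance flags 1 in 20. In CPM, *EIF2B3* was 6.94 in MII replicate 2 and 9.85 to 10.6 in the other MII libraries, and *EIF3A* was 7.55 in MII replicate 3 and 12.5 to 13.4 in the others. *EIF3L* was 290.1 in GV replicate 1 (182 to 195 in the others) and 176 in ‘damaged’ replicate 4 (118 to 134 in the others). GV replicate 1 was also high in *EIF4A1* at 65.9, against 49.2 to 50.7, and in *EIF5B* at 1415, against 1315 to 1329. *EIF4G1* was 5.6 in ‘damaged’ replicate 5 and 3.38 to 3.76 in the others.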

How the results depend on the processing

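Of the 31 genes called between MIX and GV, 21 kept call and direction under every alternative that tested them. Among these 21 are *EIF2B5*, *EIF4EBP2*, *EIF4EBP3* and *EIF4G1*, which the filter of 10 CPM left untested. On library sizes without TMM factors, 5 rose, the DEGs were 0 upward and 13 downward, the median was -1.35, and the sign turned for *EIF1AD* (-0.11), *EIF1AX* (-0.53), *EIF2S1* (-0.52), *EIF3A* (-0.11), *EIF3I* (-0.13), *EIF3J* (-0.56), *EIF4A1* (-0.53), *EIF4A3* (-0.62) and *EIF4ENIF1* (-0.78), of which *EIF1AD*, *EIF3A* and *EIF3I* had been called. That scaling moved the median of all genes from -0.16 to -1.06. With only the 8 libraries whose labels did not disagree, the median was -0.27. Values near 0 that were not called also changed sign. *EIF2S2* was 0.0061 without a filter, 0.13 with all 5 GV libraries, 0.0034 with library weights, 0.22 with the 8 libraries and -0.19 to 0.16 without 1 library. *EIF4A3* was -0.046 with a filter of 10 CPM. *EIF4ENIF1* was -0.20 with that filter, -0.11 with the 8 libraries and -0.0095 to 0.21 without 1 library, where -0.0095 is the value without GV replicate 1. *EIF4G3* was 0.0094 in DESeq2, 0.0020 without a filter, 0.00059 with counts not scaled by length and -0.096 to 0.038 without 1 library. For these, the cause was not tested. *EIF3A* lost its call with a filter of 10 CPM and with the 8 libraries, *EIF3D* without GV replicate 4 or 5, and *EIF4H* with unscaled counts and without GV replicate 2 or 5. Under the filter of 10 CPM, *EIF2B5*, *EIF4EBP2*, *EIF4EBP3* and *EIF4G1* were not tested. Leaving out 1 library gave 29 to 33 called genes and 28 to 36 called isoforms. 

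No source used here says that a replicate number marks a collection, so the numbers were not taken as pairs. The correlation of deviations was -0.11 to 0.36 in the 13 pairs of 1 number and over 0.1 in 5 of them, against -0.32 to 0.33 and 3 in the 52 pairs of other numbers, and 5 of 14 libraries correlated best with their own number. With the replicate number as a block, 32 genes were called, 11 higher and 21 lower, with *EIF4E* at -0.42 (limma FDR 0.00592) as the added one, and 35 isoforms, 29 of them among the 33. limma's diffSplice called 36 isoforms, 31 of them among the 33. The isoform test with only the 8 libraries was not run. The SE of MIX against GV was largest for *EIF4EBP3*, *EIF3F*, *EIF4EBP2* and *EIF2B5*, at 0.44, 0.38, 0.33 and 0.30.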

Other observations

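GV replicate 3, which entered no comparison of the report, lay outside the range of the other GV libraries in many of these genes. With all 15 libraries scaled together, *EIF4E3* was at 47.6 CPM in it, against 13.5 to 24.3 CPM in the other GV libraries and 30.6 to 44.4 CPM in MIX, and *EIF4EBP2* at 7.59 CPM, against 1.58 to 4.47 and 0.289 to 1.23 CPM. *EIF3M* was at 518 CPM, against 668 to 1482 CPM in the other GV libraries and 552 to 735 CPM in MIX. *EIF1*, *EIF2A* and *EIF5A2* were at 354, 33.1 and 6.44 CPM, below the lowest of the other GV libraries with 423, 51.2 and 13.1 CPM and farther from the MIX libraries. Library 3 was also the one with the fewest counts, 6.40 M, and the part of depth in these values was not tested.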
